A study of Mus musculus with 11 samples.

Results

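Potassium channel genes were followed through single-nucleus RNA-seq of mouse hindbrain and cord. They were taken as every symbol of the count matrices that starts with Kcn and has at least 100 UMIs (unique molecular identifiers, each one captured RNA molecule) over the 11 samples. This gave 86 of 94 Kcn symbols, among 25827 genes in all. Kcna10, with 110 UMIs, was the gene just inside this limit, and Kcnk15, with 91, the one just outside. The 86 genes held 16114503 UMIs, 2.468% of all UMIs. Not every one encodes a channel pore: the set includes the Kv beta subunits, the BK beta subunits, the Kv4-interacting proteins (Kcnip genes), the Kcne genes and Kcnrg, which codes for a regulator.

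The mice were male C57BL/6 animals of 8 to 12 weeks, and each sample pooled cerebellum, the brainstem of 1 hemisphere and cervical cord. All of them carry Il12rb2fl/fl, loxP sites in both copies of an interleukin-12 receptor chain gene. NestinCre/+Il12rb2fl/fl littermates carry in addition the Nes-cre transgene, in which the Nestin promoter drives Cre in neural precursors and therefore in neurons and macroglia, but not in the microglial lineage. Experimental autoimmune encephalomyelitis (EAE) was induced with MOG35-55 peptide in complete Freund's adjuvant and pertussis toxin, and tissue was taken at day 10. The groups were 4 Il12rb2fl/fl samples with EAE (fl EAE), 4 NestinCre/+Il12rb2fl/fl samples with EAE (NestinCre EAE), 2 naive Il12rb2fl/fl samples (fl naive) and 1 naive NestinCre/+Il12rb2fl/fl sample (NestinCre naive), which has no replicate. By the study's account the naive floxed sample of run 2 (fl naive 2) served as an internal control between runs, and the study used no naive data in its figures.

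Potassium channels let potassium leave or enter a cell and so bring its membrane potential back to rest. Voltage-gated (Kv) channels open during an action potential and end it, calcium-activated channels open as calcium rises, leak channels of the K2P family hold the resting potential, and inward rectifiers (Kir) do the same and, in glia, take up potassium released by neurons. Channels are assembled with auxiliary subunits, such as the Kv4-interacting proteins that bring Kv4 channels to the membrane.

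Between 13120 and 22951 barcodes and 40761007 and 86063464 UMIs were available per sample. After quality limits and removal of doublet clusters, 177099 nuclei remained, with a median of 2384 UMIs, and 4.53% of them stayed unnamed. Pairs of libraries shared at most 140 barcodes (0.69% of the smaller library). The 86 genes took 2.151% (NestinCre EAE 4) to 2.985% (fl EAE 4) of a sample's UMIs. Nuclei were grouped into classes by marker genes, and clusters were built without the Kcn genes. The doublet caller did not exclude Kcn genes, and its calls decided which clusters were removed. Kcn levels could therefore bear on which nuclei were kept, though not on how the clusters were built. 14 classes had at least 10 nuclei in every sample, and each showed its own markers in every sample. The doublet caller had marked whole classes in single samples (up to 100% of Purkinje, Golgi and unipolar brush cells, 98.1% of leptomeningeal cells or fibroblasts, 93.1% of Bergmann glia and 86.4% of border-associated macrophages), and these classes were kept. UMIs were summed per sample and class and are given as CPM, counts per 1000000 UMIs of that class. A lower sum cannot separate fewer nuclei of a subtype from less RNA per nucleus. Il12rb2 itself was sparse: in neurons it ran from 13 to 18.7 CPM in fl EAE and from 9.06 to 18.6 CPM in NestinCre EAE, and since reads of this 3′ assay need not cover the deleted part, this checks nothing about the deletion.

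As a share of a class's UMIs, potassium channel RNA was highest in cerebellar granule cells. Shares do not rank amounts per nucleus, because depth differed between classes. The median over all samples was 2263 UMIs per nucleus in granule cells. It was 13357.5 in Purkinje cells, 9869 in excitatory neurons and 9024 in inhibitory neurons. In fl EAE, the 86 genes took 3.64% ± 0.222 (SD, n = 4) of granule cell UMIs, 2.23% ± 0.161 in Purkinje cells, 1.90% ± 0.116 in unipolar brush cells, 1.68% ± 0.078 in excitatory neurons and 1.66% ± 0.04 in inhibitory neurons. Among glia the share was 1.21% ± 0.056 in oligodendrocyte progenitor cells, 0.914% ± 0.032 in astrocytes, 0.548% ± 0.039 in Bergmann glia, 0.447% ± 0.044 in mature oligodendrocytes and 0.283% ± 0.025 in microglia. The granule cell lead rested on Kcnd2, a Kv4 pore subunit, and Kcnip4, its partner. Without these genes, Purkinje cells led with 1.78% ± 0.065, and granule cells fell to 0.616% ± 0.018, below unipolar brush cells (0.945% ± 0.034), excitatory neurons (0.933% ± 0.044), inhibitory neurons (0.884% ± 0.015), Golgi cells (0.837% ± 0.076), molecular layer interneurons (0.777% ± 0.024) and oligodendrocyte progenitor cells (0.721% ± 0.022).

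**Figure D1:**
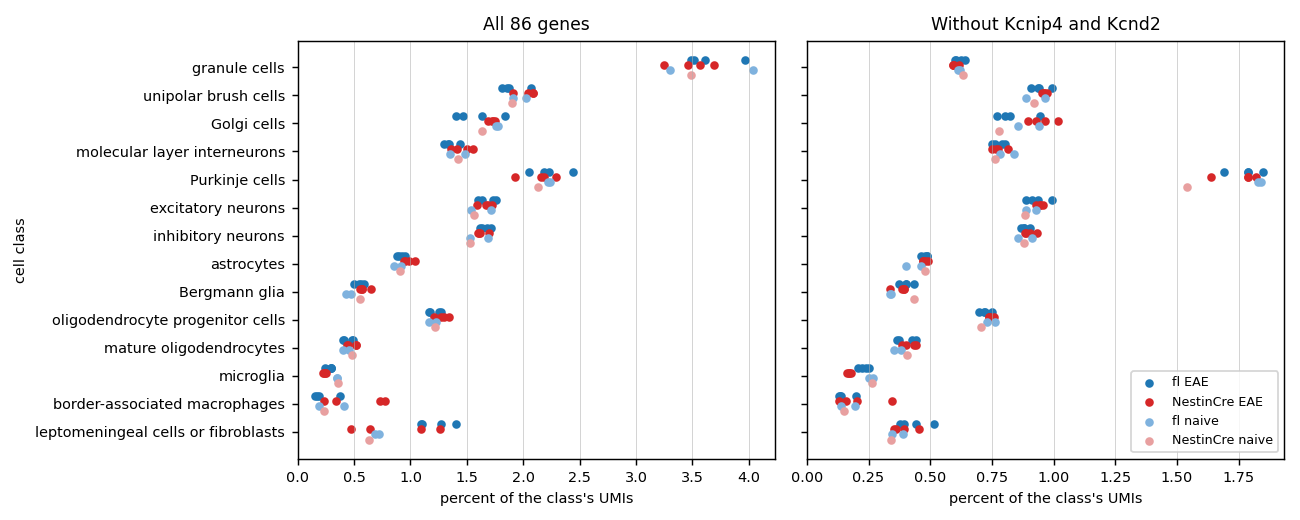
Percent of each class's UMIs that fell on potassium channel genes, 1 point per sample and coloured by group, for all 86 genes (left) and without Kcnip4 and Kcnd2 (right). Granule cells lie to the right of every other class on the left panel and Purkinje cells do so on the right panel, in all 4 groups.

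Granule cells make up most nuclei, and their genes were detected in every other class. The granule cell genes Gabra6, Fat2 and Cbln3 together stood at 2.16% (Golgi cells) to 47.5% (leptomeningeal cells or fibroblasts) of their granule cell level in single samples of the other classes. Kcnd2 did not follow these markers. In fl EAE it stood below them in mature oligodendrocytes (1.51% of its granule cell level, markers 15.7%), microglia (1.86%, markers 21.4%) and Bergmann glia (1.24%, markers 12.6%), and likewise in molecular layer interneurons, border-associated macrophages and leptomeningeal cells or fibroblasts. It stood above them in the other classes, as in oligodendrocyte progenitor cells (31.5%, markers 11.8%), astrocytes (25.9%, markers 12.6%), Golgi cells (26.2%, markers 3.99%) and unipolar brush cells (44.5%, markers 21.4%). The part of free granule cell RNA in low levels of granule-rich genes was not tested.

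Of the 86 genes, 58 reached 20 CPM in at least 1 class of fl EAE and 28 stayed under 20 CPM in all 14. Excitatory and inhibitory neurons held 42 genes at this level each, unipolar brush cells 39, oligodendrocyte progenitor cells 37, granule cells 32, astrocytes 30, microglia 21 and mature oligodendrocytes 18. 10 genes reached it in all 14 classes, a count to which free RNA may add, and 5 in exactly 1 class. The class with the highest level was the same in the other 3 groups for 40 of the 58 genes that reached 20 CPM. For 26 genes all 4 fl EAE samples of the top class lay above all 4 of the next class, and the order of the remaining top pairs is within the spread of the samples. These levels are a description and were not tested. The counts were not taken over all genes, so they show nothing particular to potassium channel genes. The top class was also picked from the same fl EAE samples whose overlap was counted.

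**Figure D2:**
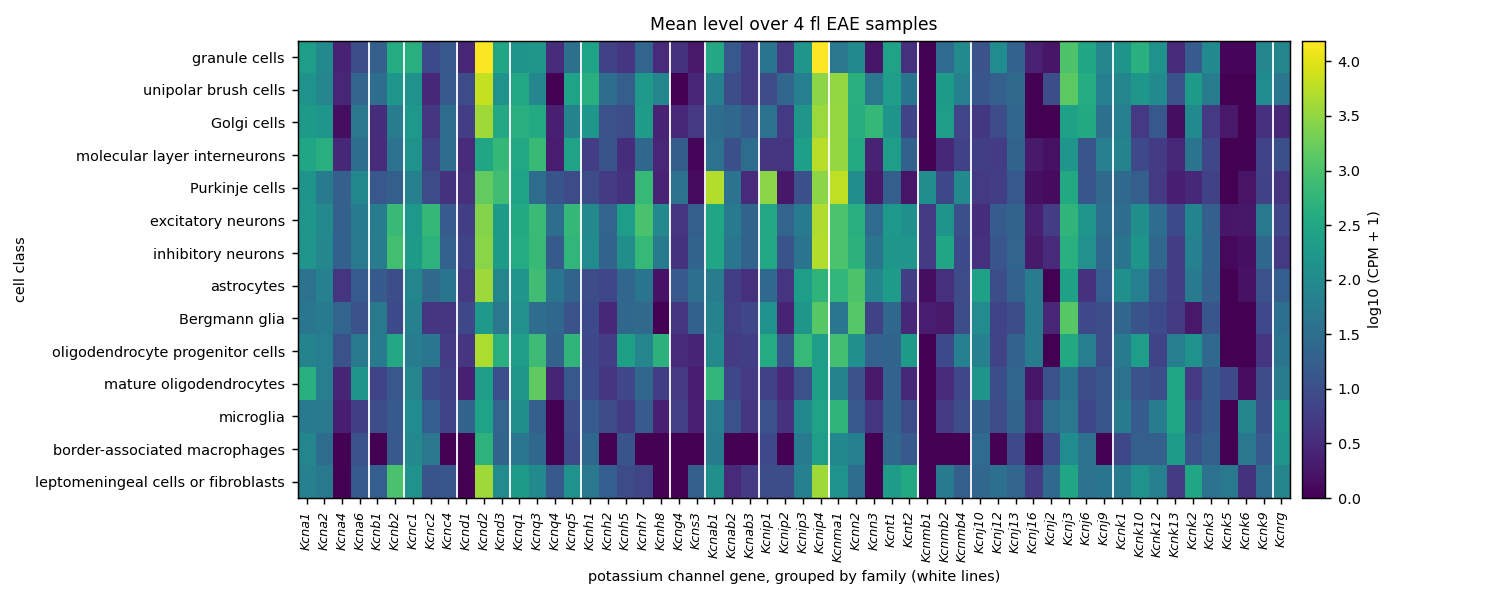
Mean CPM over the 4 fl EAE samples, as log10 of CPM + 1 (colour), of genes (columns, in families separated by white lines) that reached 20 CPM in at least 1 of 14 classes (rows). Kcnd2 and Kcnip4 stand out in granule cells, Kcnab1, Kcnip1 and Kcnmb1 in Purkinje cells, Kcnn3 in Golgi cells, Kcnh8 in oligodendrocyte progenitor cells and Kcnk13 in microglia and mature oligodendrocytes.

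Among the Kv4 channels and their partners, Kcnd2 measured 14410, 13800, 14690 and 16340 CPM in the granule cells of fl EAE 1 to 4, and Kcnip4 14280, 15300, 15340 and 16950 CPM. Both were above every other class in all samples of that group: the next classes were unipolar brush cells for Kcnd2 (6626 ± 1120 CPM) and molecular layer interneurons for Kcnip4 (5475 ± 484 CPM). Kcnip4 covers 1135.4 kb (chr5:48546844-49682249, GRCm39, minus strand), and per kb of gene body the order turned: granule cells had 28.8 CPM per kb of Kcnd2 and 13.6 of Kcnip4. Here and below, division by gene body favours short genes wherever counts of this 3′ assay do not grow with length. That growth was not tested. Kcnip1, another partner of Kv4 channels, was a Purkinje cell gene, with 2904, 2695, 2807 and 3156 CPM. Its next class was oligodendrocyte progenitor cells (370 ± 80.8 CPM). Kcnip3, which codes for a calcium sensor that also acts as a transcriptional repressor, was highest in oligodendrocyte progenitor cells (644 ± 61.4 CPM). Kcnd3 was shared by Purkinje cells (793 ± 85.3 CPM) and molecular layer interneurons (611 ± 58.9 CPM), whose samples overlapped.

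The Kv1 family, channels of axons, was spread over neurons and oligodendrocytes. Kcna1 was highest in mature oligodendrocytes, with 421, 518, 440 and 422 CPM against 293 ± 18.1 CPM in molecular layer interneurons, the next class. It is a compact gene, and per kb of gene body it was the leading potassium channel gene in mature oligodendrocytes (75.2 CPM per kb), molecular layer interneurons (48.9) and granule cells (37.8). Kcna2 was highest in molecular layer interneurons, the basket and stellate cells, with 443, 472, 414 and 415 CPM. Golgi cells followed with 157 ± 53 CPM. Kcna6 was again highest in mature oligodendrocytes (148 ± 5.9 CPM) and Kcna4 reached 22.1 ± 5.25 CPM in Bergmann glia, within the spread of inhibitory neurons (19 ± 2.97 CPM). Bergmann glia were not the top class for Kcna4 in any other group, with 0, 9.83, 0 and 12.4 CPM in NestinCre EAE and 4.37 CPM in NestinCre naive. Kcna3, known from T cells and activated microglia, had a mean of at most 3.14 CPM in fl EAE in the 14 classes, and unipolar brush cells of NestinCre EAE had a mean of 4.20 CPM.

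Of the beta subunits that join Kv1 channels, Kcnab1 was a Purkinje cell gene. It measured 5174, 4884, 5044 and 4890 CPM there, 60.1 times its median over the classes, and 602 ± 104 CPM in mature oligodendrocytes, the second class. Kcnab3 was highest in molecular layer interneurons (29.4 ± 1.46 CPM), as was Kcna2. The Kv3 channels, which allow fast firing, divided among neurons. Kcnc1 was highest in granule cells (446 ± 30.5 CPM) and Kcnc2 in excitatory (610 ± 124 CPM) and inhibitory neurons (516 ± 21.3 CPM) of brainstem and cord, whose samples overlapped.

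The Kv7 family carries the M-current that damps repeated firing. Kcnq3 was highest in mature oligodendrocytes, with 1173, 1621, 1599 and 1476 CPM, all above the next class, astrocytes (793 ± 102 CPM). Kcnq5 did not differ beyond its spread between excitatory neurons (618 ± 60.4 CPM), inhibitory neurons (572 ± 42.3 CPM) and oligodendrocyte progenitor cells (541 ± 51 CPM). Values of Kcnq1 are uncertain, since Kcnq1ot1 lies over it on the opposite strand and the sources used here do not state whether strand was used in counting.

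The Kcnh genes, which encode EAG, ERG and ELK channels, gave the clearest marker of a glial class. Kcnh8 measured 474, 507, 520 and 481 CPM in oligodendrocyte progenitor cells, 285 times its median over the classes, and 94.1 ± 11.6 CPM in excitatory neurons, the second class. Kcnh5 was at 235 ± 14.8 CPM in progenitors, within the spread of excitatory neurons (215 ± 33.1 CPM). Kcnh7 was highest in excitatory neurons (985 ± 131 CPM) and Kcnh1 in unipolar brush cells (422 ± 56.9 CPM), ahead of granule cells (264 ± 20.1 CPM).

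Calcium-activated channels marked several classes. Kcnma1, the pore of the BK channel, had 6070, 5907, 6704 and 6313 CPM in Purkinje cells, ahead of Golgi cells (3409 ± 503 CPM). Its beta subunits differed by class: Kcnmb2 was highest in inhibitory neurons (291 ± 22.3 CPM) and Golgi cells (226 ± 73.3 CPM), Kcnmb4 in granule (100.0 ± 2.35 CPM) and Purkinje cells (97.2 ± 19.8 CPM), and Kcnmb1 in Purkinje cells (111 ± 27 CPM), with 4.4 ± 1.09 CPM in the second class. Kcnmb1 lies inside Kcnip1 on the opposite strand (chr11:33890243-33923641, plus, within chr11:33576285-33943152, minus, GRCm39), Kcnip1 was itself highest in Purkinje cells, and reads of the pair cannot be told apart if strand was not used. Of the SK channels, which follow calcium entry, Kcnn3 had 571, 606, 476 and 810 CPM in Golgi cells, 140 times its median over the classes, with astrocytes next (84.8 ± 14.4 CPM). Kcnn2 was the SK gene of astroglia, with 1199 ± 67.8 CPM in Bergmann glia and 1044 ± 143 CPM in astrocytes. Kcnn4 had a mean of at most 3.67 CPM in fl EAE in the 14 classes, and at most 9.28 CPM in a single sample of any group (microglia).

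Inward rectifiers were found in both glia and neurons. Kcnj10, the main potassium uptake channel of astrocytes, measured 262, 244, 250 and 229 CPM in astrocytes, and mature oligodendrocytes (148 ± 8.79 CPM) and Bergmann glia (105 ± 22.8 CPM) came next. Astrocytes had more of it per kb than of any other potassium channel gene (7.49 CPM per kb). Kcnj16, which joins Kcnj10 in one channel, did not differ beyond its spread between astrocytes (58.5 ± 16.9 CPM), oligodendrocyte progenitor cells (57.5 ± 11.1 CPM) and Bergmann glia (55.9 ± 17.1 CPM), and mature oligodendrocytes were not among its classes at 20 CPM. The G protein-gated channels Kcnj3 and Kcnj6 were highest in unipolar brush cells (1347 ± 186 and 389 ± 73.1 CPM), within the spread of Bergmann glia for Kcnj3 (1248 ± 103 CPM) and of Golgi cells for Kcnj6 (350 ± 53.1 CPM). Kcnj12 was a granule cell gene (109 ± 7.56 CPM). Kcnj2 was highest in microglia (28.8 ± 6.6 CPM), within the spread of leptomeningeal cells or fibroblasts.

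Among K2P leak channels, Kcnk13 was shared by microglia, where it holds the resting potential and supports surveillance, and mature oligodendrocytes. Microglia had 304, 332, 276 and 294 CPM and mature oligodendrocytes 307, 285, 295 and 289 CPM, so these classes did not differ beyond their spread, and border-associated macrophages followed (208 ± 102 CPM). Kcnk6 was highest in microglia (78.7 ± 31.4 CPM, 177 times its median over the classes), though its 90 UMIs in fl EAE are few. Granule cells were highest for Kcnk10 (453 ± 14.7 CPM), Kcnk1 (148 ± 7.08 CPM), Kcnk12 (138 ± 6.39 CPM) and Kcnk3 (101 ± 8.81 CPM), and unipolar brush cells (109 ± 16.1 CPM) and granule cells (83.4 ± 6.87 CPM) overlapped for Kcnk9, the acid-sensitive leak channel. Leptomeningeal cells or fibroblasts had the highest mean for Kcnk2 (290 ± 71.3 CPM), for Kcnk5 (47.6 ± 31.5 CPM), for the Kv2 gene Kcnb2 (968 ± 918 CPM) and for Kcnt2 (354 ± 192 CPM), a sodium-activated channel. Of these, Kcnk5 alone did not overlap the next class, though from only 14 UMIs in fl EAE and 1 UMI in fl EAE 4, its lowest sample. The doublet caller had marked most nuclei of this class in some samples. Kcnrg was highest in microglia (197 ± 96.1 CPM) and is uncertain because Dleu2 overlaps it.

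The genotypes were compared in EAE, where the NestinCre samples differ from fl samples by the Nes-cre transgene and the deletion it makes. No sample has Nes-cre without floxed Il12rb2, so effects of the transgene and of Il12rb2 loss cannot be told apart. Microglia showed most of the potassium channel calls: Kcnma1, Kcnk12 and Kcnip3 were lower in NestinCre EAE than in fl EAE. The other calls were both Kcnip1, which was higher in mature oligodendrocytes and lower in granule cells. edgeR's quasi-likelihood test with Benjamini-Hochberg adjustment within a class, applied to all genes, called 5 of 468 gene and class pairs (72 of the 86 genes passed the filter on low counts in at least 1 class, which itself depends on the groups). Over all genes and classes 1.06% of tests were called, so 5 of 468 is near the background. DESeq2 called 6. The unadjusted p was under 0.05 in 77 pairs (16.5%), against 7.92% over all genes and classes, and the median log2 fold change of the pairs was 0.02.

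**Figure D3:**
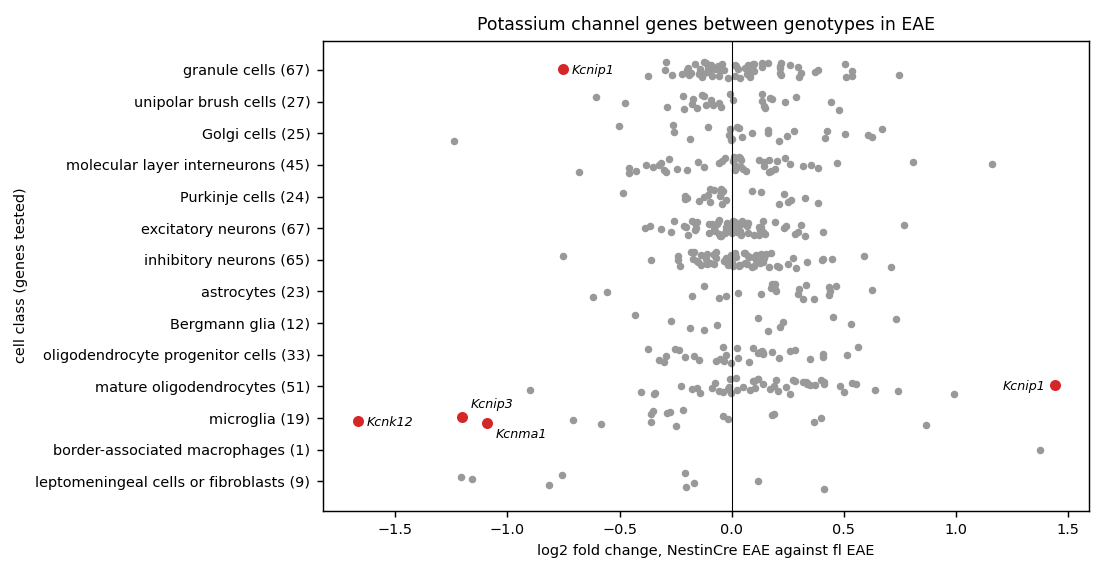
log2 fold change of NestinCre EAE against fl EAE (x axis) for each potassium channel gene tested in each class (rows, with the number of genes tested), with called genes in red and named. Most genes lie near 0, and the red points are Kcnk12, Kcnip3 and Kcnma1 in microglia, on the left, and Kcnip1, on the left in granule cells and on the right in mature oligodendrocytes.

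In microglia Kcnma1 measured 628, 527, 435 and 574 CPM in fl EAE 1 to 4 and 170, 190, 307 and 342 CPM in NestinCre EAE 1 to 4. The fl naive samples had 696 and 557 CPM and the NestinCre naive sample 634 CPM. The EAE groups did not overlap, and the 3 naive samples lay with or above fl EAE. The log2 fold change was -1.09 (SE 0.19, edgeR adjusted p = 0.000771), a 2.13-fold lower level, and it held the same side of the threshold under all 17 alternatives, from -1.28 to -0.66. Within run 2, which holds replicate 4 of both groups, the levels were 574 and 342 CPM. Purkinje cells, the class with the highest Kcnma1, had 6070, 5907, 6704 and 6313 CPM in fl EAE and 6709, 6287, 5358 and 6365 CPM in NestinCre EAE, and these overlapped.

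Kcnk12, a K2P gene whose product is mostly silent on its own, measured 44.8, 81.6, 29.7 and 70.1 CPM in fl EAE microglia and 9.52, 17.8, 19.6 and 20.5 CPM in NestinCre EAE microglia, without overlap. These levels rest on 6 to 23 UMIs per sample. The naive samples had 70.5, 82.7 and 98 CPM. This was a log2 fold change of -1.67 (SE 0.36, edgeR adjusted p = 0.00623). The call was lost without doublet removal (-0.89, adjusted p = 0.119), in run 1 alone (-1.57, adjusted p = 0.0534), without fl EAE 4 (-1.57, adjusted p = 0.0523) and without NestinCre EAE 4 (-1.56, adjusted p = 0.0505).

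Kcnip3 measured 115, 81.6, 57.3 and 103 CPM in fl EAE microglia and 14.3, 35.6, 39.3 and 62.4 CPM in NestinCre EAE microglia, so the groups overlapped at 1 sample. The naive samples had 148, 159 and 114 CPM, all but 1 above every EAE sample. On the log2 scale the change was -1.20 (SE 0.31, edgeR adjusted p = 0.0194). The call was lost in 5 of 17 alternatives, without fl EAE 1 (adjusted p = 0.0876), fl EAE 2 (adjusted p = 0.0665) or NestinCre EAE 1 (adjusted p = 0.0565) among them, with log2 fold changes from -1.43 to -0.84.

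**Figure D4:**
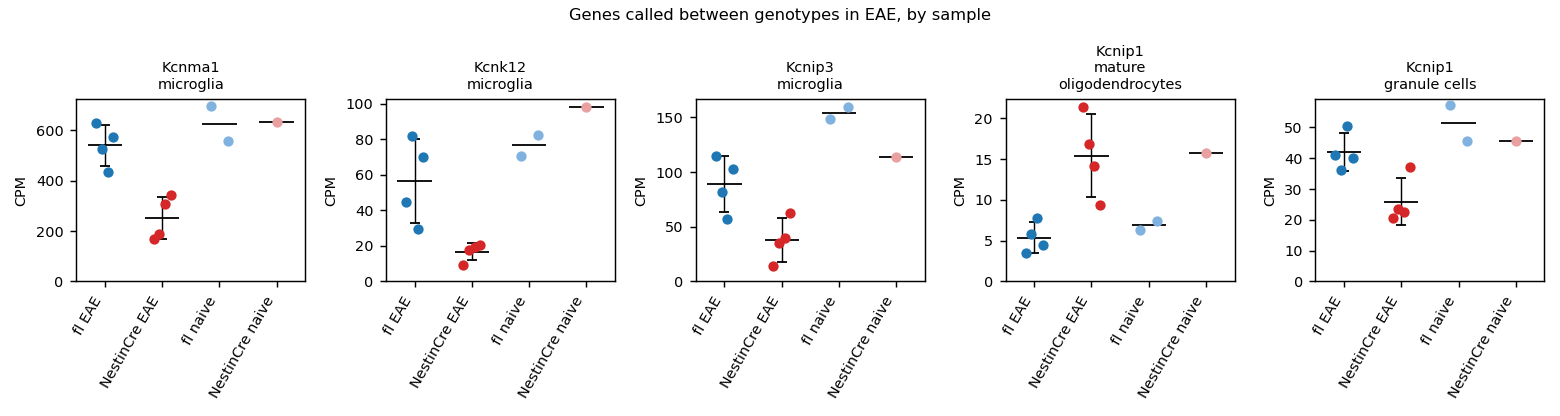
CPM of the genes called between genotypes in EAE, 1 point per sample in each of the 4 groups, with the mean (bar) and, for the EAE groups, the SD (whiskers). In microglia the 4 fl EAE points lie above the NestinCre EAE points for Kcnma1 and Kcnk12 and overlap at 1 sample for Kcnip3, and the naive samples lie within or above the range of fl EAE.

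The calls in microglia were 3 of 19 potassium channel genes tested, where 6.4% of all genes were called in either direction and 1.91% were called lower. The fold change was negative in 14 of the 19, with a median of -0.27 against -0.02 over all genes of the class. Kcnk13 measured 293, 181, 229 and 217 CPM in NestinCre EAE (log2 fold change -0.36, SE 0.17, edgeR adjusted p = 0.272) and Kcnk6 had a log2 fold change of 0.37 (SE 0.26, adjusted p = 0.528). Neither passed the test. The microglia of the groups differed in other ways. The summed level of 9 homeostatic microglia genes ran from 4881 to 5927 CPM in fl EAE, from 3391 to 4325 CPM in NestinCre EAE and from 6240 to 7841 CPM in naive samples, in the same order as Kcnma1. That of 15 interferon-stimulated genes ran from 443.5 to 1712 CPM in fl EAE and from 5101 to 6232 CPM in NestinCre EAE. The 8 markers of infiltrating phagocytes, none of them at 0 in every sample, summed to 5.44 to 44.6 CPM in fl EAE microglia and 76.7 to 333 CPM in NestinCre EAE microglia, beside 1689 to 4701 CPM in the EAE phagocytes themselves. Phagocytes pooled over all 11 samples had 55.6 CPM of Kcnma1, 9.88 CPM of Kcnk12 and 33.3 CPM of Kcnip3. The part of these in the calls was not tested.

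The level of 3 granule cell genes relative to granule cells overlapped between the EAE groups, while the sum of 6 granule cell markers did not. In microglia that sum ran from 1177 to 1510 CPM in fl EAE and from 930.2 to 1175 CPM in NestinCre EAE. The naive samples had 1416 to 1581 CPM. In microglia the 3 granule cell genes stood at 26.4%, 26.1%, 21.4% and 11.8% of their granule cell level in fl EAE 1 to 4 and at 15.7%, 22.1%, 11.7% and 14.7% in NestinCre EAE 1 to 4. Kcnma1 was at 46.6 ± 8.8 CPM in granule cells, below its microglial level, whereas Kcnk12 was highest in granule cells. Kcnip4, the most abundant granule cell gene of the set, stood at 1.69% of its granule cell level in fl EAE microglia, while Kcnk12 stood at 41.1% and Kcnip3 at 57.1%. The part of granule cell RNA in these calls was not tested.

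The promoters of the genes that were each called lower in microglia, a cell type without Cre, are shown, and joint regulation was not tested. They are RefSeq sequences on GRCm38.p6, matched by symbol, from 250 bases before to 50 bases after the start, written 5′ to 3′ on the strand of the gene. Capitals mark matches, on either strand, to GAGGAA, the core bound by the myeloid factor PU.1, or to TTCNNNGAA, the element bound by STAT factors. These motifs do not overlap in the windows printed. Kcnma1 lies at chr14:24004156-24004455, Kcnk12 at chr17:87797945-87798244 and the first of 3 listed starts of Kcnip3 at chr2:127522045-127522344, all on the minus strand.
Kcnma1: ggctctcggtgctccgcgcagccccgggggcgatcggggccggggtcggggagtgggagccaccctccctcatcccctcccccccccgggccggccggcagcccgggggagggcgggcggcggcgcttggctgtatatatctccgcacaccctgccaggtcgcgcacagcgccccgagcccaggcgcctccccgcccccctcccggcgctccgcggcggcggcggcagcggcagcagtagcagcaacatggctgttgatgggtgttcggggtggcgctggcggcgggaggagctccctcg
Kcnk12: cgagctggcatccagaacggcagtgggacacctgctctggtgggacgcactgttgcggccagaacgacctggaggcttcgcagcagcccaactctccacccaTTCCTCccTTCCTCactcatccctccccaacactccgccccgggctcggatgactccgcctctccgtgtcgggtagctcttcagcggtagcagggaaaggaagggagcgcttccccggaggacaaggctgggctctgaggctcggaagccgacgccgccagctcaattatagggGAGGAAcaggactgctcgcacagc
Kcnip3: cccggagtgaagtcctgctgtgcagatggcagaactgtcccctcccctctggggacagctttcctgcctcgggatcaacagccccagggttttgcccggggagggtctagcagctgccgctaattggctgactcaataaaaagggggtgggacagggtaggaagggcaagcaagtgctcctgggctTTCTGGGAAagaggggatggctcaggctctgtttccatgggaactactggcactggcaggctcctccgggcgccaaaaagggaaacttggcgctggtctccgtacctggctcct
Kcnk12 held 3 matches to GAGGAA and the window of Kcnip3 shown 1 match to TTCNNNGAA, and the Kcnma1 window held neither. At the other starts of Kcnip3, the second window held 1 match to GAGGAA and none to TTCNNNGAA, and the third held neither. Of 32851 promoters of this length, 28.3% hold GAGGAA and 8.3% hold TTCNNNGAA, so such matches are common.

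In mature oligodendrocytes Kcnip1 measured 3.51, 5.85, 7.75 and 4.43 CPM in fl EAE and 21.4, 16.9, 14.1 and 9.31 CPM in NestinCre EAE, without overlap, from 11 to 74 UMIs per sample. The fl naive samples had 6.33 and 7.4 CPM and the NestinCre naive sample 15.8 CPM. The log2 fold change was 1.44 (SE 0.25, edgeR adjusted p = 0.0112). Without doublet removal it was -0.02 (adjusted p = 0.993), and without fl EAE 2 it was 1.40 (adjusted p = 0.0514). Purkinje cells, in which Kcnip1 is far higher, have markers that summed to 199.5 to 261.8 CPM in fl EAE and 185.6 to 327.9 CPM in NestinCre EAE oligodendrocytes, none of 6 at 0 in every sample, and the part of neuronal RNA was not tested. This was 1 call among 51 potassium channel genes tested, where 1.7% of all genes were called.

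In granule cells Kcnip1 moved the other way. It measured 41.1, 36.2, 50.6 and 40.2 CPM in fl EAE and 20.6, 23.4, 22.5 and 37.2 CPM in NestinCre EAE, where replicate 4 lay apart and overlapped fl EAE 2. The naive samples had 57.1, 45.7 and 45.6 CPM. This gave a log2 fold change of -0.75 (SE 0.14, edgeR adjusted p = 0.0246). The call was lost in 7 of 17 alternatives, including the omission of fl EAE 1 (adjusted p = 0.0827), fl EAE 2 (adjusted p = 0.0547), NestinCre EAE 1 (adjusted p = 0.0811), 2 (adjusted p = 0.0805) or 3 (adjusted p = 0.0866), while the fold change stayed between -0.92 and -0.63. It was 1 call among 67 potassium channel genes tested, where 1.83% of all genes were called. Kcnq3 (162 and 127 CPM, log2 fold change -0.37, SE 0.08, adjusted p = 0.0701) did not pass. In 2 of 17 alternatives it did, and its log2 fold change ran from -0.44 to -0.32.

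No potassium channel gene was called between genotypes in the remaining 11 classes by edgeR or by DESeq2, though 47 of their 331 pairs had an unadjusted p under 0.05. These included excitatory neurons (67 genes tested, 5 with an unadjusted p under 0.05), inhibitory neurons (65 and 9), molecular layer interneurons (45 and 6), Purkinje cells (24 and 1), Golgi cells (25 and 9) and astrocytes (23 and 4). The genes with the smallest p in astrocytes were Kcnip4 (log2 fold change 0.63, adjusted p = 0.131), Kcnj3 (-0.55, adjusted p = 0.436) and Kcnq1 (-0.62, adjusted p = 0.445), and in molecular layer interneurons Kcnq5 (-0.43, adjusted p = 0.424), Kcns2 (-0.68, adjusted p = 0.428) and Kcnk2 (-0.46, adjusted p = 0.458). In mature oligodendrocytes Kcnk5 (-0.90, adjusted p = 0.105) and Kcnq1 (-0.41, adjusted p = 0.17) followed Kcnip1. Among these uncalled genes, Kcnq5 in molecular layer interneurons passed in 2 of 17 alternatives and Kcnq1 in mature oligodendrocytes in 1. A p that misses the threshold does not show that the genotypes were alike.

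EAE was compared with the naive state in fl mice. Oligodendrocyte progenitor cells carried most of the calls: Kcnip4 and Kcnip3 were lower and Kcnip1 was higher in fl EAE, and in astrocytes Kcnn2 was higher. These were 4 of 569 pairs tested, where 0.116% of all tests were called. DESeq2 called 1 of them, Kcnn2 (adjusted p = 0.0355), and none of the 3 in oligodendrocyte progenitor cells. With the run as a term this contrast rests on run 2, the only run with both states, so its values are given beside the groups. The naive sample of run 2 is fl naive 2, the internal control, so the naive side of this contrast is 1 sample. The spread behind its SE and p-values comes from the EAE samples, and the difference between the fl naive samples does not enter.

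Kcnip4 in oligodendrocyte progenitor cells measured 209, 186, 293 and 210 CPM in fl EAE and 546 and 533 CPM in fl naive, without overlap. Within run 2 it was 210 CPM in EAE and 546 CPM in the naive sample. The log2 fold change was -1.70 (SE 0.30, edgeR adjusted p = 0.000948). The level in fl EAE was 1.46% of that in granule cells, close to the 1.54% of mature oligodendrocytes and the 1.69% of microglia, and the part of free granule cell RNA in it was not tested. In microglia, too, Kcnip4 had a negative fold change (-1.18, adjusted p = 0.267). The call was lost with DESeq2 (-1.66, adjusted p = 0.105), with nuclei under 6000 UMIs alone (-0.73, adjusted p = 0.794), with all nuclei marked as doublets left out (-0.67, adjusted p = 0.749) and without doublet removal (-0.03, adjusted p = 0.993).

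Kcnip3, highest in these cells among the classes, measured 608, 676, 713 and 578 CPM in fl EAE and 1152 and 1240 CPM in fl naive, again without overlap. Within run 2 it was 578 and 1152 CPM. The change was -0.99 on the log2 scale (SE 0.22, edgeR adjusted p = 0.0272). The NestinCre naive sample, at 741 CPM, lay with the NestinCre EAE samples (605 to 758 CPM) rather than with fl naive. The call was lost in 8 of 17 alternatives, including DESeq2 (adjusted p = 0.108) and the omission of fl EAE 1 (adjusted p = 0.056), fl EAE 4 (adjusted p = 0.0697), NestinCre EAE 3 (adjusted p = 0.0547) or NestinCre EAE 4 (adjusted p = 0.0776), with log2 fold changes from -1.09 to -0.83.

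Kcnip1 measured 344, 346, 303 and 488 CPM in fl EAE and 172 and 496 CPM in fl naive, so the groups overlapped. Within run 2 it was 488 and 172 CPM. The log2 fold change was 1.52 (SE 0.31, edgeR adjusted p = 0.00585), but without the run term it was 0.20 (adjusted p = 0.907), with DESeq2 1.53 (adjusted p = 0.103), and without fl EAE 4 it was 1.44 (adjusted p = 0.0681). The 3 calls came from 35 potassium channel genes tested in oligodendrocyte progenitor cells, where 0.281% of all genes were called.

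Astrocytic Kcnn2 measured 1007, 1008, 912 and 1247 CPM in fl EAE and 399 and 788 CPM in fl naive, without overlap. Within run 2 it was 1247 and 399 CPM. The fitted log2 fold change was 1.51 (SE 0.33, edgeR adjusted p = 0.0271). The NestinCre naive sample, at 1006 CPM, lay among the EAE samples. Without the run term the value was 0.86 (adjusted p = 0.206), without fl EAE 4 1.03 (adjusted p = 0.242), without doublet removal 1.32 (adjusted p = 0.203), and the call was also lost without fl EAE 1 (adjusted p = 0.054), fl EAE 2 (adjusted p = 0.0506) or NestinCre EAE 2 (adjusted p = 0.051). This was 1 of 29 potassium channel genes tested in astrocytes, where 0.343% of all genes were called. Kcnj10, measured at 226 and 263 CPM in the astrocytes of fl naive and between 229 and 262 CPM in fl EAE, overlapped between the states.

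**Figure D5:**
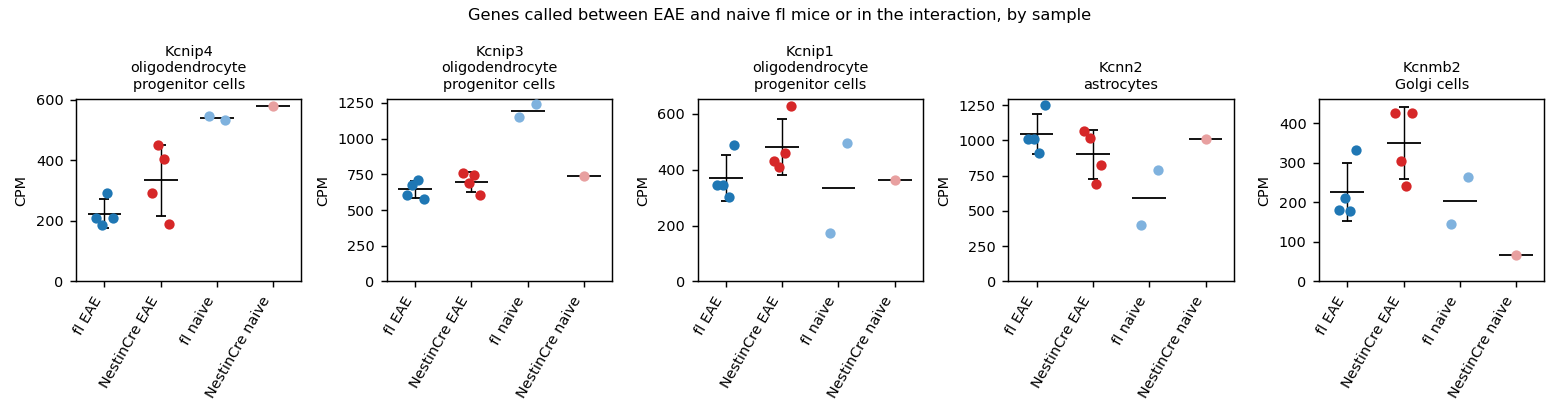
CPM of the genes called between EAE and naive fl mice or in the interaction of genotype and EAE, 1 point per sample in each of the 4 groups, with the mean (bar) and, for the EAE groups, the SD (whiskers). fl EAE and fl naive are apart for Kcnip4 and Kcnip3 in oligodendrocyte progenitor cells and for Kcnn2 in astrocytes and overlap for Kcnip1, and the single NestinCre naive sample is the lowest of all for Kcnmb2 in Golgi cells.

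No potassium channel gene was called between EAE and naive samples in the other 12 classes, which include neurons, mature oligodendrocytes and microglia, by edgeR or by DESeq2, and 39 of their 505 pairs had an unadjusted p under 0.05. The smallest unadjusted p in mature oligodendrocytes belonged to Kcnh8 (log2 fold change -1.26, adjusted p = 0.134), Kcnk13 (-0.62, adjusted p = 0.161) and Kcnh7 (-0.78, adjusted p = 0.172). Kcnk13 in these cells was at 437 and 353 CPM in fl naive, above the 285 to 307 CPM of fl EAE. In granule cells they belonged to Kcnh7 (-0.74, adjusted p = 0.317) and Kcnk1 (0.33, adjusted p = 0.368), and in molecular layer interneurons to Kcnq3 (0.48, adjusted p = 0.565). In microglia Kcnip4 was followed by Kcnd2 (-0.97, adjusted p = 0.481) and Kcnk10 (-1.27, adjusted p = 0.813), and in astrocytes Kcnn2 by Kcnc2 (-2.39, adjusted p = 0.215) and Kcnq5 (-3.19, adjusted p = 0.291). Over all classes 49 pairs (8.61%) had an unadjusted p under 0.05, against 8.4% over all genes and classes.

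The interaction of genotype and EAE, the difference between the genotype effects in EAE and in naive mice, was called for 1 gene of 569 pairs, where 0.00532% of all tests were called. Kcnmb2, the BK beta subunit that makes BK channels inactivate, measured 181, 211, 177 and 333 CPM in the Golgi cells of fl EAE, 426, 304, 242 and 425 CPM in NestinCre EAE, 144 and 263 CPM in fl naive and 67.1 CPM in NestinCre naive. The interaction was 2.59 (SE 0.47, edgeR adjusted p = 0.000637). It rests on a genotype difference in EAE that was not itself called (log2 fold change 0.62, SE 0.17, edgeR adjusted p = 0.459). Its naive side, with the run term, is NestinCre naive (67.1 CPM, 15 UMIs in 23 nuclei) against fl naive 3 (263 CPM) alone. fl naive 2 (144 CPM) does not enter it. The spread of these lone naive samples is borrowed from the EAE groups. The adjusted p rose to 0.0813 with DESeq2, 0.0619 without the run term and 0.0809 without doublet removal, and no value could be fitted with the nuclei that the doublet caller had marked left out or with nuclei under 6000 UMIs alone. In Golgi cells 0.102% of all genes were called. For the microglial genes the interaction was -1.32 for Kcnma1 (SE 0.40, adjusted p = 0.342) and -1.95 for Kcnk12 (SE 0.64, adjusted p = 0.404), so a difference of the genotype effect between EAE and naive mice was not shown. In the 13 classes other than Golgi cells, edgeR and DESeq2 called none of 538 pairs, and 47 had an unadjusted p under 0.05.

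Other genes of potassium handling were counted in the same fits, where 1.06% of all tests were called between genotypes and 0.116% between EAE and naive samples, so lists of this size would hold few calls at the background rate. Of 20 accessory genes not named Kcn, such as Dpp6 and Dpp10, which join Kv4 channels, 18 were tested, and 1 of 171 pairs was called between genotypes by edgeR and 1 by DESeq2, with 10 at an unadjusted p under 0.05. This was Nrp1, better known as a co-receptor for semaphorins and VEGF, in microglia, with a log2 fold change of 0.64 (SE 0.15, edgeR adjusted p = 0.0117), 410 ± 73.6 CPM in fl EAE and 639 ± 142 CPM in NestinCre EAE. Among 8 other channels of the resting and pacemaker potential, such as Nalcn, edgeR called 0 of 73 pairs (7 at an unadjusted p under 0.05), and among 12 genes of potassium uptake and buffering, such as Aqp4, 0 of 108 (5 at an unadjusted p under 0.05). DESeq2 called none in either list. None of these lists had a call between EAE and naive samples by edgeR or DESeq2 (0 of 188, 0 of 82 and 0 of 127 pairs, of which 18, 9 and 13 had an unadjusted p under 0.05) or in the interaction (7, 5 and 7). Their median log2 fold changes between genotypes were 0.03, 0.00 and -0.02. As a contrast in the same fits, 76 of 93 pairs of interferon-stimulated genes were called, all higher in NestinCre EAE. Of 42 pairs of homeostatic microglia genes 5 were called, 3 of them lower in microglia (Siglech, Cx3cr1 and Gpr34). The remaining calls were Selplg, higher in NestinCre EAE in granule cells (log2 fold change 1.88) and in mature oligodendrocytes (2.00).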

How the data were processed

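The deposited matrices hold counts of UMIs per gene and barcode for 11 samples, as the authors made them with Cell Ranger (per the file headers version 7.0.0 in sequencing run 1 and 6.0.2 in runs 2 and 3) on GRCm39 with intronic reads included. Run 1 held EAE replicates 1 to 3 of both genotypes, run 2 EAE replicate 4 of both and fl naive 2, and run 3 the other naive samples. Whether strand was used in counting is not given in the sources used here.

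Nuclei were kept with at least 200 genes (run 1) or 500 genes (runs 2 and 3) and under 5% mitochondrial UMIs, integrated and clustered without Kcn genes (40 components, 3000 variable genes, igraph 0.11.9), and named by at least 3 markers. 26 of 120 clusters with over 40% of nuclei marked as doublets were left out (10990 nuclei), save where a class had no other cluster. Sums of UMIs per sample and class entered the quasi-likelihood test of edgeR 4.0.16 (run in R 4.3.3, with TMM scaling, the filterByExpr filter and sequencing run as a term), with Benjamini-Hochberg adjustment over all genes of a class and a threshold of 0.05. The genotype fit used the 8 EAE samples, the other contrasts all 11. By the study's description, the EAE samples are separate mice, and p-values measure the spread between these samples. In the fits of all 11 samples with the run term, the naive samples add nothing to this spread. The scripts were tested on simulated data. DESeq2 1.42.0, other scaling, filters, doublet rules, runs and omissions of samples were alternatives.

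The members and gene lists were chosen with earlier results of these data known. Named genes were, per class, the 3 with the largest ratio to the median class (at least 20 CPM and 20 UMIs), all called genes, the 3 smallest p in granule cells, mature oligodendrocytes, microglia, astrocytes and molecular layer interneurons, a fixed list of known cell type genes, and both genes at the UMI limit. A few genes that meet this rule are not reported here.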

Additional observations from a re-analysis of the deposited data

Results flagged for a closer look

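5 of 68 groups of 4 samples of named genes held a sample far from the other 3, where chance flags about 1 group in 20. Kcnd2 in border-associated macrophages was at 1479 CPM in fl EAE 1 and at 112 to 316 CPM in the other fl EAE samples. Kcnh7 in excitatory neurons was at 1179 CPM in fl EAE 4 against 897 to 945 CPM. Kcnip1 in granule cells was at 37.2 CPM in NestinCre EAE 4 against 20.6 to 23.4 CPM. Kcnq5 in molecular layer interneurons was at 239 CPM in fl EAE 1 against 270 to 273 CPM. Kcnj8 in leptomeningeal cells or fibroblasts was at 9.09 CPM in fl EAE 4, from 1 UMI, and at 0 in the other 3 samples.

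For Kcnmb2 in Golgi cells edgeR's interaction of genotype and EAE was 2.59 on the log2 scale, with fl naive 3 as the only floxed naive sample in it. It rests on 1 NestinCre naive sample with 15 UMIs, and the call was lost with DESeq2 (adjusted p = 0.0813), without the run term (adjusted p = 0.0619) and without doublet removal (adjusted p = 0.0809). In T or NK cells, a class of 166 nuclei that entered no comparison because fl EAE and naive samples had none, Kcnq5 had 242 UMIs (951 CPM) and Kcnn4, the calcium-activated channel of activated T cells, had 10 UMIs (39.3 CPM), all of them in NestinCre EAE samples. These nuclei also held 278 UMIs of Kcnip4 (1090 CPM), a granule cell gene, and the part of neuronal RNA was not tested.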

How the results depend on the processing

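The count of gene and class pairs called between genotypes (5) was 2 without doublet removal, 13 without the filter beyond 1 UMI and 3 without the run term, and 2 to 8 when 1 sample was left out (2 without fl EAE 2, 3 without fl EAE 1, 8 without NestinCre EAE 3). It was 6 with DESeq2 and 5 with RLE size factors, with all nuclei marked as doublets left out and with nuclei under 6000 UMIs. Samples sharing a number did not deviate together in granule cells (correlations 0.019, 0.0462 and -0.0303). In molecular layer interneurons their correlations were 0.0277, 0.057 and 0.0348. There, samples with different numbers had -0.0412 to 0.00365. In the other classes checked, same-number and different-number correlations overlapped. These values cannot settle whether the numbers mark pairs. With the replicate block the count was 4, Kcnip1 in granule cells being lost. The count between EAE and naive fl mice (4) was 1 with DESeq2, 1 without doublet removal, 8 without the filter, 2 without the run term, 2 with nuclei under 6000 UMIs, and 2 to 5 when 1 sample was left out (2 without fl EAE 1 or fl EAE 4). It could not be fitted without fl naive 2. The interaction count (1) was 0 with DESeq2, 0 with marked nuclei left out, 0 without doublet removal, 0 without the run term, 0 with nuclei under 6000 UMIs, 2 without the filter, and 1 to 2 when 1 sample was left out (2 without fl EAE 4). Kcnmb2 in Golgi cells had no value with marked nuclei left out or nuclei under 6000 UMIs, so those counts do not test it. The interaction could not be fitted without fl naive 3 or NestinCre naive 2. The choice to leave out marked nuclei was made after seeing the data. Of the 42 genes named for the 14 classes, 34 to 39 were named again under each alternative. Without doublet removal the log2 fold change turned for Kcnip1 in mature oligodendrocytes (-0.02) and Kcnip4 in astrocytes (-0.24) between genotypes, for Kcnc2 in astrocytes (0.25) between EAE and naive, and for Kcnh8 (-0.16) and Kcnt2 (-0.10) in mature oligodendrocytes in the interaction. The causes were not tested. Depth was lowest in border-associated macrophages (22172 UMIs in the shallowest sample), leptomeningeal cells or fibroblasts (43411), Bergmann glia (69293) and unipolar brush cells (87114).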

Other observations

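Some classes were too small for a comparison. Their levels are pooled over all samples and have no error between samples, and the doublet caller had marked up to 100% of choroid plexus cells and newly formed oligodendrocytes in a sample, which were kept because these classes had no other cluster. It had also marked up to 100% of T or NK cells, 78.8% of infiltrating phagocytes, 70% of endothelial cells, 50% of mural cells and 30% of monoaminergic neurons in a sample. Choroid plexus cells had 36 UMIs of Kcne2 (172 CPM), 62 of Kcnj13 (296 CPM) and 92 of Kcnh1 (439 CPM). Kcnj13 encodes an epithelial inward rectifier, and its value is uncertain because Gigyf2 overlaps the gene on the opposite strand. Kcnj8, the inward rectifier of vascular ATP-sensitive channels, had 34 UMIs in mural cells (205 CPM) and 35 in endothelial cells (121 CPM), while its mean in fl EAE was at most 2.27 CPM in the 14 compared classes. In NestinCre EAE, leptomeningeal cells or fibroblasts had a mean of 14.6 CPM, from 3 UMIs in NestinCre EAE 2. Monoaminergic neurons had Kcnb2 at 1360 CPM, Kcnh7 at 899 CPM, Kcnc2 at 584 CPM and Kcnn3 at 183 CPM. Newly formed oligodendrocytes had Kcnq3 at 879 CPM and Kcnq5 at 818 CPM. Infiltrating phagocytes had Kcnk13 at 106 CPM, from 86 UMIs. Kcna3 had 0 UMIs in T or NK cells, which allows up to 11.8 CPM.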
